A study of Homo sapiens with 9 samples.

Results

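Cytosolic ribosomal proteins are the structural proteins of the ribosomes that work outside mitochondria. Their genes were taken as the rows of the deposited count table whose symbol is RPSA, RPLP0, RPLP1 or RPLP2, or is RPL or RPS followed by digits and then nothing, A or X. Pseudogenes, the RPS6K kinases and the paralogs whose symbols end in L were left out. The rule found 77 of the 20263 genes in the table, 46 of the large and 31 of the small subunit, and it used no measured value. Poly(A) RNA was sequenced from HaCaT, an immortalised human keratinocyte line, in 9 libraries. Of these, 3 came from control cells (titled Blank, treatment label WT), 3 from cells given melanosomes (treatment label Melanosom treatment) and 3 from cells given melanosomes and glabridin, a flavonoid of licorice (Melanosome glabridin treatment). Melanosomes are the pigment granules that melanocytes hand over to keratinocytes. Doses, times and the melanosomes' source are not given in the labels used here. No group received glabridin without melanosomes. The series title places the study in the degradation of melanosomes by autophagy, in which cells digest their own components.

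A ribosome has a small subunit, which reads the messenger RNA, and a large subunit, which joins the amino acids, and each is built of ribosomal RNA and many proteins. The messenger RNAs of these proteins are among the most abundant of a growing cell, and most start with a C and a run of pyrimidines, the terminal oligopyrimidine or TOP motif. Through this motif and the binding protein LARP1, the growth-sensing kinase complex mTORC1 controls how strongly they are translated and how long they last.

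Between 39653425 and 46690787 counts were deposited per library, and 13912 genes passed the filter on low counts, all 77 ribosomal protein genes among them. Levels are CPM, the count of a gene per scaled library size, with the scaling by the trimmed mean of M-values (TMM). Changes are log2 fold changes with their standard errors from edgeR's quasi-likelihood test, and a gene was called at a Benjamini-Hochberg adjusted p under 0.05 over all genes tested. In brackets after a change, a value on its own is that adjusted p. The keratinocyte label was met by 24 marker genes, none of which was at 0 in any library, with a summed level of 21460.4 to 21839.8 CPM in control, 16838 to 18057 CPM in melanosome and 14877 to 17649.7 CPM in glabridin libraries. Of the 23 tested, 14 fell and 4 rose in melanosome against control, or 60.9% and 17.4%, where 33.0% and 29.5% of all genes tested did. The 12 fibroblast markers summed to 12.99 to 45.6 CPM. Markers of melanocytes differed between groups most. All 22 rose in melanosome against control libraries. In glabridin against melanosome libraries 8 fell and 2 rose, or 36.4% and 9.09%, where 20.2% and 23.7% of all genes tested did. Their sum was 231 to 241 CPM in control, 3758 to 3871 CPM in melanosome and 2358 to 4186 CPM in glabridin libraries, and TYR, OCA2, SLC24A5, TRPM1, KIT and S100B were at 0 in every control library. What part RNA of melanocytes had in the levels below was not tested. In RNA from whole cultures, fewer cells of a type and less RNA per cell cannot be told apart. The labels do not say whether the 3 libraries of a group are separate cultures, so a p-value covers only the spread among libraries, which may be technical.

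The start of the messenger RNA is what these genes are known to share. The set of RefSeq promoters used here (GRCh38.p14) held a start site for 62 of the 77 genes. In 46 of the 62, or 74.2%, a listed start was a C followed by at least 4 pyrimidines, against 1404 of 27305 genes in the whole promoter set, or 5.14%. The share was 28 of 38 in the large and 18 of 24 in the small subunit. Runs were 5 to 19 bases long, with a median of 8. The windows below hold 20 bases before and 20 bases from the start for some of the members described below, chosen after their values were seen and not covering every member with a large or small change. They are read along the strand of the gene, with the pyrimidine run in capitals.
RPS6 (chr9:19380217-19380256, minus strand): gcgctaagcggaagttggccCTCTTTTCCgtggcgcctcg
RPL34 (chr4:108620556-108620595, plus strand): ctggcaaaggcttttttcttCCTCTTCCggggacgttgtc
RPL26 (chr17:8383174-8383213, minus strand): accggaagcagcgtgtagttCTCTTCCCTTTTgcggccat
RPSA (chr3:39406700-39406739, plus strand): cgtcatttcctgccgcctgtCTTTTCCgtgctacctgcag
RPLP2 (chr11:809947-809986, plus strand): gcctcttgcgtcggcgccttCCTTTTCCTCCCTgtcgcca
RPLP0 (chr12:120201092-120201131, minus strand): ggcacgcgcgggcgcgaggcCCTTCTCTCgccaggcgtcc
RPL10 (chrX:154398357-154398396, plus strand): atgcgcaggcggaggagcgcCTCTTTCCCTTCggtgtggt
RPL39 (chrX:119791611-119791650, minus strand): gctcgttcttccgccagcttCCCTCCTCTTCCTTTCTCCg
RPL6 (chr12:112409266-112409305, minus strand): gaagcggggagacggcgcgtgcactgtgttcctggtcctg
The last window, of RPL6, has no such run at its start, nor has the other start listed for RPL6, which is not shown. In all, 16 of the 62 genes had no such run at any listed start, RPL4, RPL6 and RPL17 among them. Upstream of and around the starts, CCGGAAG was found on either strand in 22 of 62 genes (35.5%, against 12.2% of all genes with a listed promoter of the same length), AAGATGGC in 6 (9.68% against 3.52%), GGGCGG in 36 (58.1% against 48.3%) and CACGTG in 4 (6.45% against 8.78%). None of these motifs contains another. They are matches of letters in windows of 250 bases before and 50 bases after a start, and describe the sequence only.

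In control cells the ribosomal protein genes took 11.6%, 11.3% and 11.6% of all counts. In the deposited TPM, which divide each count by a transcript length, they took 20.6%, 20.0% and 20.7%. Over all 9 libraries the mean TPM of a member ranged from 2.35 for RPL36A to 8714 for RPS18, with a median of 1560. RPL35, RPL8 and RPL39 had the highest mean TPM in the large subunit, and RPS18 and RPS2 were among the highest in the small subunit. The order depends on the transcript length that the authors divided by, since counts per TPM differed between members from 6.60 (RPL39) to 131 (RPL37). In control, RPL37 had a mean of 1804 CPM and 588 TPM, while RPL39 had 1309 CPM and 8501 TPM. Some members were far below the rest. RPS10 averaged 15.3 ± 1.19 CPM (SD, n = 3), RPL17 92.6 ± 8.27 CPM and RPL36A 1.30 ± 0.229 CPM in control. Each of these 3 overlaps a readthrough gene (RPS10-NUDT3, RPL17-C18orf32 and RPL36A-HNRNPH2) that was listed at 0 counts in every library. In all, 8 members overlap another gene of the table on the same strand. Many ribosomal protein genes also have processed pseudogenes of near-identical sequence, and how the authors' counting placed reads that fit both is not stated in the sources used here, so levels of single members are uncertain to that extent.

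Melanosome-laden cells had lower levels of nearly every ribosomal protein transcript than control cells. By edgeR, 76 of 77 members fell and none rose, where 33.0% of all genes tested fell and 29.5% rose. The members' median log2 fold change was -0.61, a fold of 0.657, against -0.06 for all genes tested. The decrease was shallow and even, since the members' middle values spanned -0.69 to -0.50 (interquartile range 0.19, against 0.84 for all genes), and 43 members changed at least 1.5-fold and 3 at least 2-fold. Both subunits took part. All 46 members of the large subunit fell, with a median of -0.61, and 30 of 31 of the small subunit, with a median of -0.55. In 76 members the 3 melanosome libraries all lay below the 3 control libraries, a separation seen in 41.1% of all genes tested, with 35.0% separate in the other direction. The exception was RPS28. As shares of all counts, the members together took 8.27%, 8.76% and 8.48% in the melanosome libraries.

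**Figure D1:**
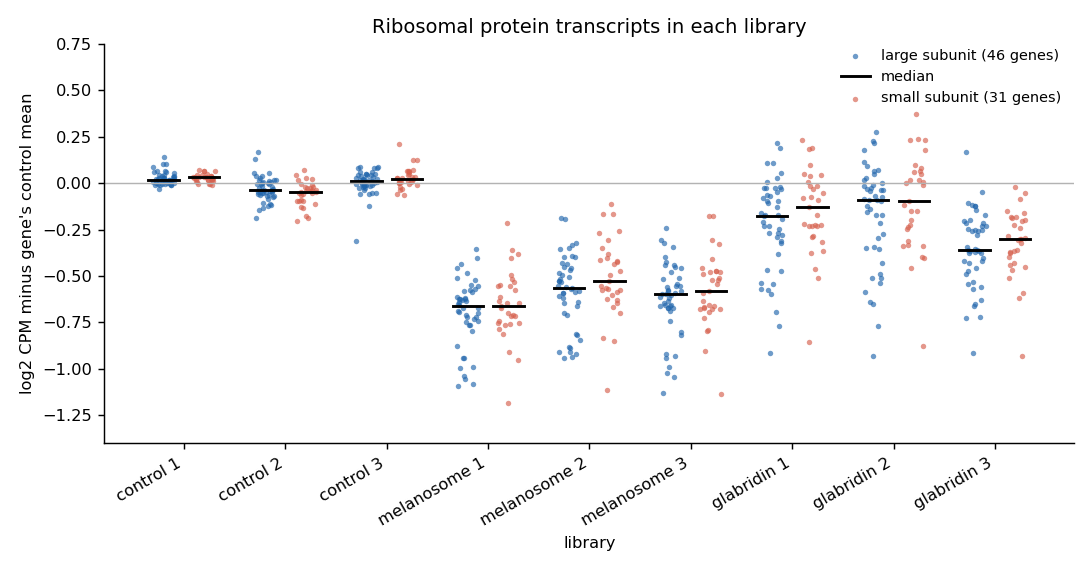
Each point is 1 ribosomal protein gene in 1 library, as log2 CPM minus that gene's control mean, with the large subunit in blue, the small subunit in red and black bars at the medians. Both subunits sit near 0 in control, at medians between -0.66 and -0.53 in melanosome libraries, and at medians between -0.36 and -0.09 in glabridin libraries.

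How far all genes shift depends on the scaling. With library totals alone instead of TMM factors, the median of all genes tested moved from -0.06 to 0.11 in melanosome against control and from 0.01 to -0.17 in glabridin against melanosome. Genes called higher then made up 66.0% rather than 47.2% of calls in the first comparison and 29.05% rather than 54.0% in the second. The members' distance from that median hardly moved. It was -0.55 with either scaling in melanosome against control, and 0.38 with either scaling in glabridin against melanosome, while the members' own medians became -0.44 and 0.22.

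In the small subunit, RPS6, the protein that S6 kinases phosphorylate downstream of mTORC1 (chr9:19375715-19380254, GRCh38), had the lowest log2 fold change of all members. Its level was 2329, 2341 and 2263 CPM in the control libraries, 1016, 1066 and 1049 CPM in the melanosome libraries and 1276, 1258 and 1211 CPM in the glabridin libraries. The 3 groups did not overlap, with control highest, melanosome lowest and glabridin much nearer to melanosome. In melanosome against control RPS6 fell by 1.15 ± 0.05 on the log2 scale (fold 0.452, adjusted p = 2.58e-08). RPS3, which lines the entry of the mRNA channel, was at 3219.6, 3045 and 3126 CPM in the control libraries, 1966, 2128 and 2143 CPM in the melanosome libraries and 2667, 2884 and 2324 CPM in the glabridin libraries. Its change was -0.59 ± 0.08 (adjusted p = 9.06e-05), close to the members' median. RPS27A, made as a fusion with ubiquitin, changed by -0.69 ± 0.07 (adjusted p = 9.62e-06). RPS19, whose gene is mutated in Diamond-Blackfan anaemia, changed by -0.32 ± 0.09 (adjusted p = 0.00887). Besides leaving out single libraries and testing against a fold of 1.2, 11 alternatives tested for any change. They kept all libraries of the groups compared, which is what all libraries means for these alternatives below. Of the 11, 3 did not call RPS19, library totals alone (-0.15, adjusted p = 0.0998) and both limma fits on TPM (-0.14, 0.0657 and 0.0647).

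At the other end were RPSA, also known as a laminin receptor, and RPS2, a core protein of the small subunit. RPSA (chr3:39406689-39412542) was at 1399, 1359.5 and 1386 CPM in the control libraries, 1192, 1229 and 1220.2 CPM in the melanosome libraries and 1622, 1786 and 1302 CPM in the glabridin libraries. In these CPM every melanosome library lay below every control library, yet the change of -0.19 ± 0.09 did not pass the test (edgeR adjusted p = 0.108). In the deposited TPM they overlapped, at 2371, 2339 and 2382 in control and 2388, 2347 and 2322.5 in melanosome libraries. With library totals alone the change was -0.02 (edgeR adjusted p = 0.848). With only the control and melanosome libraries fitted, the change was -0.11 and the adjusted p 0.00482, the single one of 18 alternatives that called RPSA. RPS2 was at 4064, 4164 and 4063 CPM in the control libraries, 3187, 3648 and 3625 CPM in the melanosome libraries and 4665, 4828 and 4035 CPM in the glabridin libraries. It passed narrowly, at -0.23 ± 0.08 (adjusted p = 0.0241), and no longer did so without any 1 of the control libraries (adjusted p = 0.0577, 0.0721 and 0.0571 for replicates 1, 2 and 3) or without melanosome replicate 1 (0.0907). With all libraries kept, 8 of the 11 alternatives did not call RPS2 (adjusted p = 0.118 to 0.386), and with library totals alone it stood at -0.07 (adjusted p = 0.364).

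In the large subunit, RPL34 (chr4:108620566-108630412) and RPL26, a target of the ubiquitin-like modifier UFM1, were the members besides RPS6 that fell at least 2-fold. RPL34 was at 492, 432 and 491 CPM in the control libraries, 220.5, 245 and 215 CPM in the melanosome libraries and 316, 313 and 298 CPM in the glabridin libraries. Its change was -1.06 ± 0.07 (fold 0.481, edgeR adjusted p = 5.54e-07). RPL26 was at 294, 275 and 292 CPM in the control libraries, 136, 153 and 139 CPM in the melanosome libraries and 189, 184 and 193 CPM in the glabridin libraries. It fell by 1.01 ± 0.06 (fold 0.497, adjusted p = 2.48e-07). In both genes the groups did not overlap, with glabridin libraries in between. RPL31, at the mouth of the exit tunnel, followed with -0.97 ± 0.08 (adjusted p = 3.04e-06).

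RPL5, RPL11 and RPL23 bind MDM2, the ligase that removes p53, when they are free of ribosomes, and RPL5 and RPL11 carry the smallest ribosomal RNA into the large subunit. RPL5 was at 1653, 1535 and 1619.8 CPM in the control libraries, 805, 852 and 806 CPM in the melanosome libraries and 989, 938 and 966 CPM in the glabridin libraries. It fell by 0.96 ± 0.05 (edgeR adjusted p = 1.4e-07). RPL11 was at 1245, 1249 and 1211 CPM in the control libraries, 739, 755 and 773 CPM in the melanosome libraries and 893, 916 and 879.8 CPM in the glabridin libraries. It fell by 0.71 ± 0.05 (adjusted p = 6.19e-07). RPL23 changed by -0.90 ± 0.05 (adjusted p = 2.21e-07). All 3 had melanosome libraries below and apart from control libraries, and glabridin libraries between them.

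RPL4, which lines the exit tunnel, changed by -0.60 ± 0.06 (adjusted p = 1.86e-05), and RPL41, a very short peptide at the contact of the subunits, by -0.61 ± 0.08 (adjusted p = 7.66e-05). RPL10, which joins the large subunit late in its assembly, was at 3622, 3389.6 and 3668 CPM in the control libraries, 2094, 2244 and 2123 CPM in the melanosome libraries and 3572, 3462 and 3265 CPM in the glabridin libraries. It fell by 0.73 ± 0.06 (adjusted p = 2.68e-06), and its glabridin libraries overlapped the control libraries. RPLP0, RPLP1 and RPLP2 form the stalk that receives the elongation factors. RPLP0 was at 5404, 5088 and 5511 CPM in the control libraries, 3177, 3418 and 3383 CPM in the melanosome libraries and 4941, 4991 and 4147 CPM in the glabridin libraries. It fell by 0.68 ± 0.08 (adjusted p = 2.9e-05), more than RPLP1, at -0.50 ± 0.09 (adjusted p = 0.000841), and RPLP2, at -0.28 ± 0.09 (adjusted p = 0.0219), though these differences between stalk genes were not tested. RPLP2 was at 1181, 1071 and 1231 CPM in the control libraries, 877, 1012 and 978 CPM in the melanosome libraries and 1346, 1403 and 1119 CPM in the glabridin libraries. Its call was lost without control replicate 1 (adjusted p = 0.0647), control replicate 3 (0.0856) or melanosome replicate 1 (0.0849). With all libraries kept it was lost in 8 of 11 alternatives (adjusted p = 0.0827 to 0.238), DESeq2 and every other scaling among them, and the change was -0.11 with library totals alone. RPL36, at -0.32 ± 0.10 (adjusted p = 0.0148), likewise lost its call without control replicate 3 (0.0522) or melanosome replicate 1 (0.0612), and in 8 of the 11 alternatives (0.0525 to 0.137), with -0.16 by library totals alone.

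The weakest calls were those of RPS28, at -0.37 ± 0.13 (edgeR adjusted p = 0.0265), and RPL36A, at -0.63 ± 0.23 (0.0334). RPS28 lost its call without control replicate 1 (0.0583), control replicate 3 (0.119), melanosome replicate 1 (0.102) or melanosome replicate 3 (0.0990). RPL36A lost it without control replicate 1 (0.0985), control replicate 2 (0.104), melanosome replicate 2 (0.115) or melanosome replicate 3 (0.0843). With all libraries kept, RPS28 lost its call in 8 of the 11 alternatives (0.0597 to 0.181) and RPL36A in 10 (0.0525 to 0.110). Over all single libraries left out, 72 to 75 members were called lower.

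**Figure D2:**
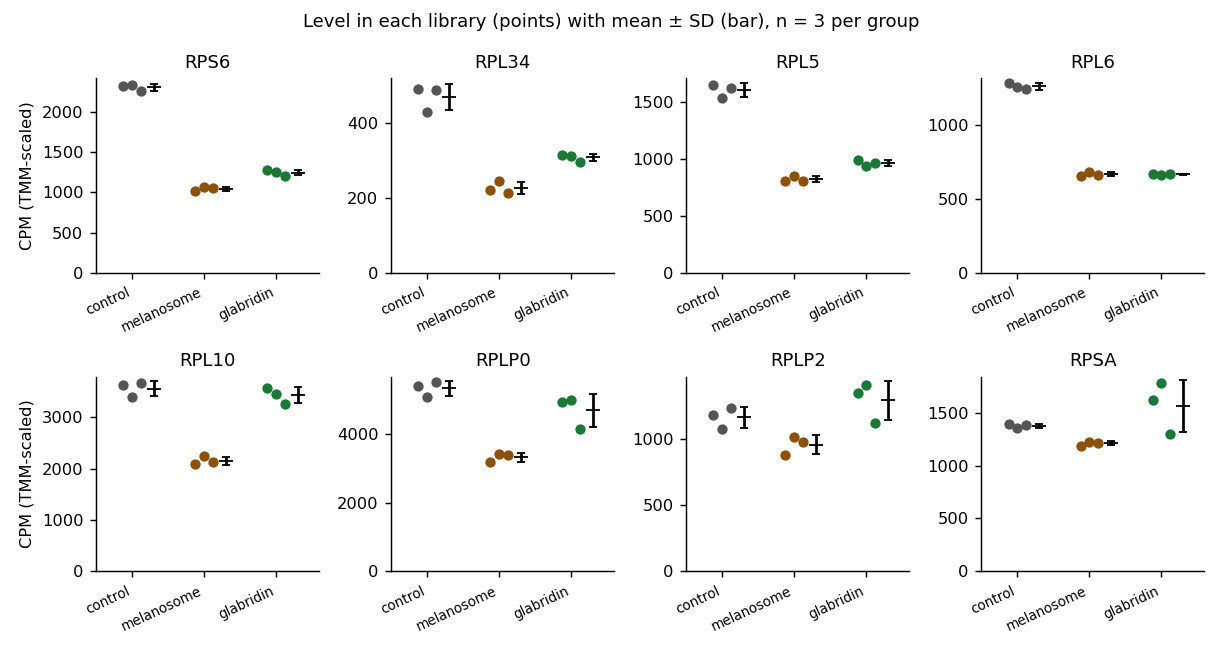
Levels in CPM of 8 ribosomal protein genes, with 1 point per library and the mean ± SD of 3 libraries beside each group. RPS6, RPL34 and RPL5 have glabridin means above melanosome but nearer to it than to control, RPL6 stays at the melanosome level, and RPL10, RPLP0, RPLP2 and RPSA have means nearer to control than to melanosome, or above control.

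Cells given glabridin on top of melanosomes had higher levels of most ribosomal protein transcripts than cells given melanosomes alone. Of 77 members, 73 rose and none fell, where 23.7% of all genes tested rose and 20.2% fell (43.9% in either direction). The median log2 fold change was 0.40, a fold of 1.32, against 0.01 for all genes, and the interquartile range was 0.10 against 0.62. In the large subunit 43 of 46 rose, with a median of 0.40, and in the small subunit 30 of 31, with a median of 0.39. The glabridin libraries lay above the melanosome libraries without overlap in 75 members, as in 26.0% of all genes (50.2% were separate in either direction), and the exceptions were RPL6 and RPS28. The members took 10.1%, 10.3% and 9.21% of all counts in glabridin libraries. Sizes were modest, and 2 members changed at least 1.5-fold. Without glabridin replicate 1 the number that rose was 39 of 77. In that fit 35.0% of all genes tested were called, and 41.4% of those calls were higher. Without any other single library the number of members that rose was no lower than 71. Against a fold of 1.2 instead of no change, 32 members passed. There 24.5% of all genes tested were called, and 51.4% of those calls were higher.

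Members tended to be high or low together in the libraries of a group. Glabridin replicate 3 had the lowest level of its group in 69 of 77 members and replicate 2 the highest in 58, and the members' median relative to control was -0.17, -0.09 and -0.34 in replicates 1, 2 and 3. The summed melanocyte markers in the same libraries were 2754, 4186 and 2358 CPM. The summed keratinocyte markers were 15863, 17649.7 and 14877 CPM. Replicate 3 was the lowest and replicate 2 the highest in the members and in both marker sums, which with 3 libraries was not tested. Melanosome replicate 1 was the lowest of its group in 70 members, with medians of -0.66, -0.56 and -0.59 for replicates 1 to 3, and control replicate 2 in 52. The coefficient of variation of a member over the 3 libraries had a median of 3.27% in control, 4.71% in melanosome and 8.28% in glabridin libraries, and was highest among glabridin libraries for RPSA, at 15.7%, and lowest for RPL6, at 0.571%.

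RPL10 rose most of all members, from 2154 ± 79.8 CPM in melanosome to 3433 ± 156 CPM in glabridin libraries (SD, n = 3), by 0.67 ± 0.06 on the log2 scale (fold 1.59, edgeR adjusted p = 1.1e-05). RPS10, a protein ubiquitinated on stalled ribosomes, rose by 0.60 ± 0.11 (adjusted p = 0.00136) from its low count. RPL39, a short protein inside the exit tunnel, rose by 0.55 ± 0.09 (adjusted p = 0.000596). The stalk genes rose as well, RPLP0 by 0.50 ± 0.08 (adjusted p = 0.000489), RPLP1 by 0.41 ± 0.09 (0.00449) and RPLP2 by 0.43 ± 0.09 (0.00351). Without glabridin replicate 1, RPLP1 and RPLP2 did not pass (adjusted p = 0.0746 and 0.0621).

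The members with the smallest rises were RPL5, at 0.23 ± 0.05 (edgeR adjusted p = 0.00536), RPL11, at 0.25 ± 0.05 (0.00205), RPL22, at 0.25 ± 0.06 (0.00542), and RPS6, at 0.26 ± 0.05 (0.00189). All 4 calls were lost without glabridin replicate 1, with adjusted p of 0.159, 0.0692, 0.163 and 0.0835 in that order, and with library totals alone, at 0.401, 0.159, 0.302 and 0.113. Of the 11 alternatives with all libraries, 6 did not call RPL5, 4 RPL11, 6 RPL22 and 4 RPS6. RPSA, at 0.37 ± 0.09 (adjusted p = 0.00913), lost its call without glabridin replicate 1 (0.130) and in 4 of the 11 alternatives (0.0579 to 0.0833). RPL23 rose by 0.40 ± 0.05 (0.000177), RPL4 by 0.45 ± 0.06 (0.000290), RPS3 by 0.34 ± 0.08 (0.00541), RPS27A by 0.43 ± 0.07 (0.000500), RPS19 by 0.39 ± 0.09 (0.00462) and RPL41 by 0.34 ± 0.08 (0.00520). Of these, RPS3, RPS19 and RPL41 did not pass without glabridin replicate 1 (0.0979, 0.0773 and 0.0760), nor did RPS3 and RPL41 with library totals alone (0.0587 and 0.0685).

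RPL6, a structural protein of the large subunit (chr12:112405190-112418838), stood apart. Its level was 1288, 1262 and 1245 CPM in the control libraries, 659, 685 and 664 CPM in the melanosome libraries and 669, 663 and 670.2 CPM in the glabridin libraries. Melanosome and glabridin libraries overlapped, and both lay far below control. The change from melanosome to glabridin was -0.00 ± 0.05 (edgeR adjusted p = 0.958), whereas that from control to melanosome was -0.92 ± 0.05 (adjusted p = 7.3e-08). Scaled by library totals alone, RPL6 was lower in glabridin than in melanosome libraries (-0.18, adjusted p = 0.00499), and 3 of 18 alternatives called it, all of them lower. The other members that did not pass were RPL17, a protein at the exit tunnel, at 0.16 ± 0.08 (adjusted p = 0.122), RPS28, at 0.29 ± 0.13 (0.0950), and RPL36A, at 0.58 ± 0.23 (0.0636). RPS28 was at 194, 169 and 225 CPM in the control libraries, 134, 179.8 and 139 CPM in the melanosome libraries and 192, 195 and 166 CPM in the glabridin libraries, with overlap between all groups. It was called without melanosome replicate 2 (adjusted p = 0.0206) or glabridin replicate 3 (0.0294), and RPL17 and RPL36A in none of the 18 alternatives. RPL36A was at 1.42, 1.45 and 1.04 CPM in the control libraries, 1.01, 0.680 and 0.823 CPM in the melanosome libraries and 1.14, 1.18 and 1.45 CPM in the glabridin libraries, and its standard errors were the widest of all members.

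**Figure D3:**
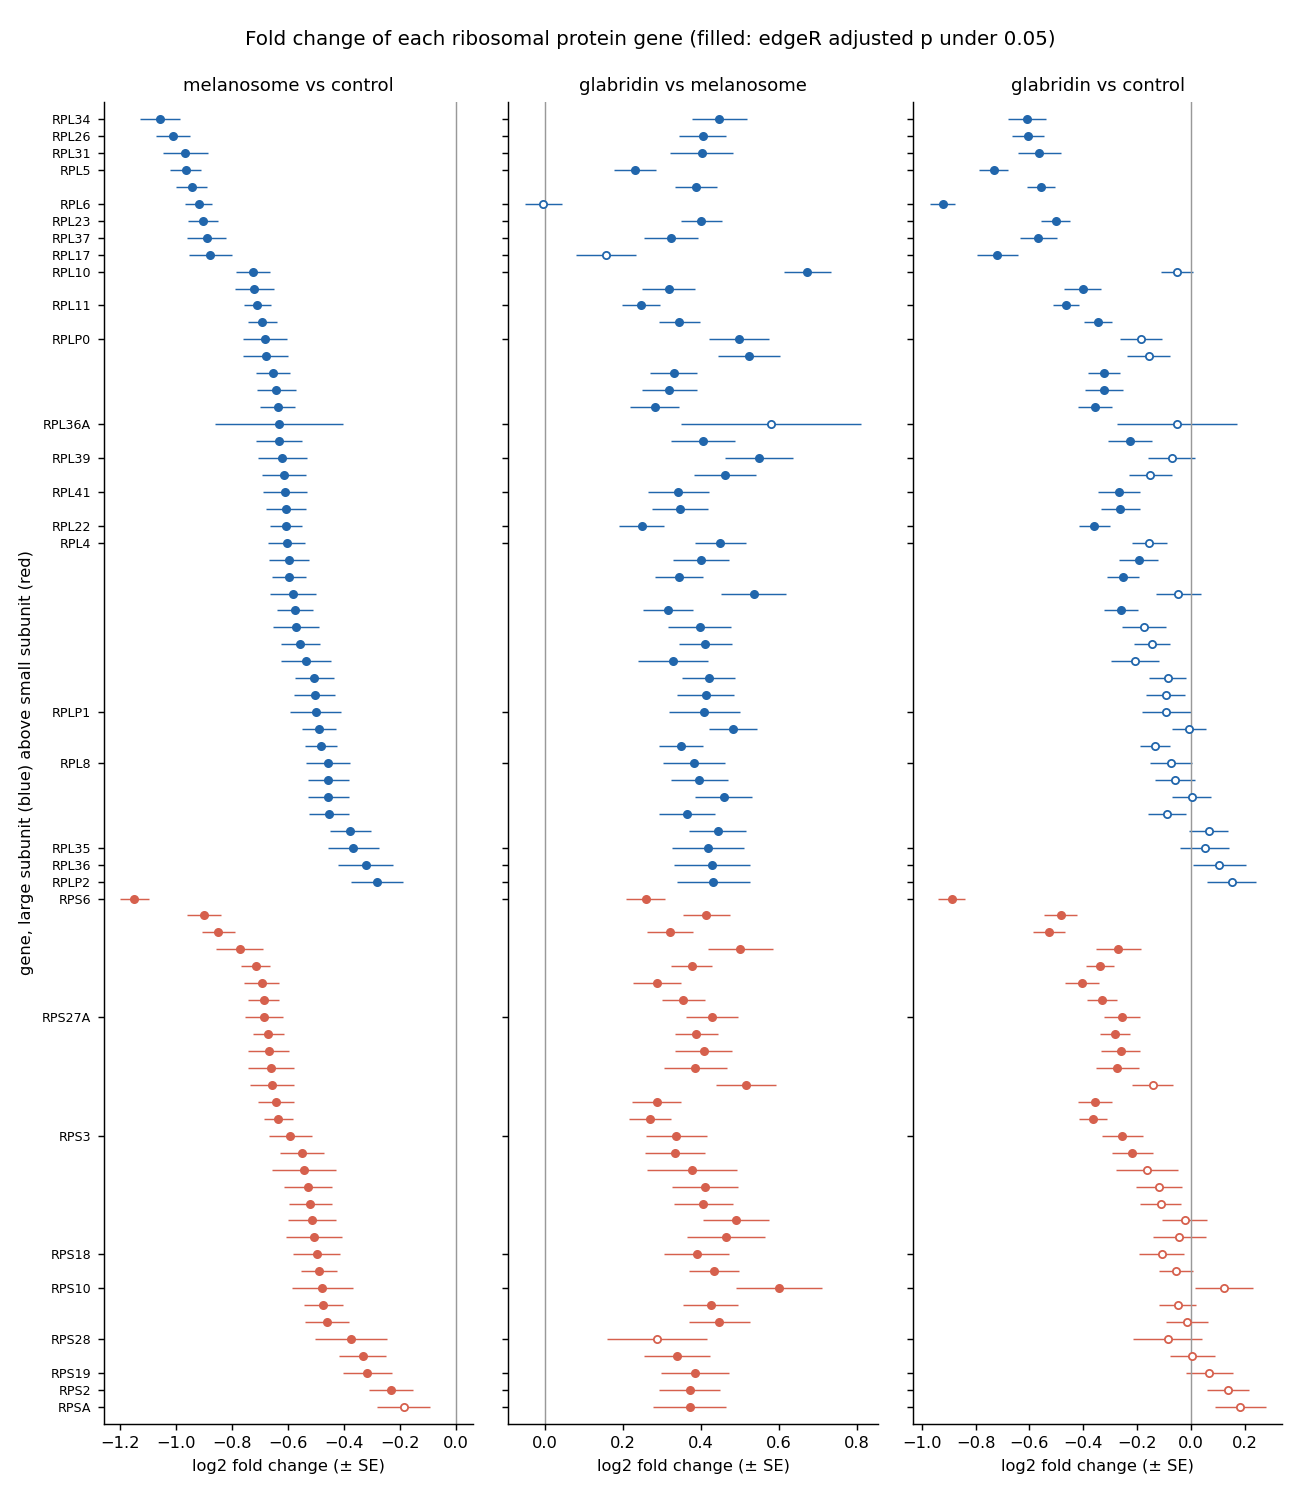
Log2 fold change ± SE of each of the 77 genes in the 3 comparisons, large subunit in blue above small subunit in red, each sorted by melanosome against control, with the genes named in the text labelled; filled points have an edgeR adjusted p under 0.05. In melanosome against control all genes lie under 0, in glabridin against melanosome all but RPL6 lie over 0, and in glabridin against control they span -0.92 to 0.18.

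Set against control, cells given melanosomes and glabridin together kept lower levels of many members. This comparison shares its libraries with those above and cannot tell melanosomes from glabridin. By edgeR, 37 of 77 members were lower and none higher, where 32.7% of all genes tested were lower and 37.6% higher (70.3% in either direction), and 40 members were not called. The members' median was -0.18, a fold of 0.880, against 0.03 for all genes. In the large subunit 22 of 46 were lower, with a median of -0.19, and in the small subunit 15 of 31, with a median of -0.16. Glabridin libraries lay below control libraries without overlap in 41 members and above them in none, where 34.4% and 38.7% of all genes did so. The range of log2 fold changes was -0.92 to 0.18.

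The largest differences from control were those of RPL6, at -0.92 ± 0.05 (edgeR adjusted p = 4.3e-08), RPS6, at -0.89 ± 0.05 (8.94e-08), RPL5, at -0.73 ± 0.05 (6.36e-07), RPL17, at -0.72 ± 0.08 (1.11e-05), and RPL34, at -0.61 ± 0.07 (1.96e-05). RPL23 and RPL11 were lower as well, by 0.50 ± 0.05 (1.05e-05) and 0.46 ± 0.05 (9.07e-06). RPL10, at -0.05 ± 0.06 (adjusted p = 0.450), RPLP0, at -0.18 ± 0.08 (0.0514), and RPL4, at -0.15 ± 0.06 (0.0517), were not called, and RPLP0 and RPL4 passed without glabridin replicate 2 (0.0143 and 0.00282) and in 5 and 4 of the 11 alternatives with all libraries (lowest adjusted p 0.00596 and 0.00349). At the upper end, RPSA was at 0.18 ± 0.09 (adjusted p = 0.104), RPLP2 at 0.15 ± 0.09 (0.164), RPS2 at 0.14 ± 0.08 (0.137), RPS10 at 0.12 ± 0.11 (0.330) and RPL36 at 0.11 ± 0.10 (0.346). With all libraries, none of these passed as reported, and limma on log2(TPM + 0.1) called RPSA (adjusted p = 0.0481) and RPS2 (0.0369). Without glabridin replicate 3, 7 members were called higher than control. In that fit 74.7% of all genes tested were called, and 51.5% of those calls were higher. Among the 7 were RPSA at 0.30 (adjusted p = 0.000231), RPLP2 at 0.24 (0.00796) and RPS2 at 0.21 (0.00761).

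By summed TPM, the balance of the subunits was nearly the same in all groups. The summed TPM of large subunit genes over that of small subunit genes was 1.741, 1.729 and 1.741 in control, 1.724, 1.726 and 1.724 in melanosome and 1.751, 1.739 and 1.760 in glabridin libraries. Means were 1.737 ± 0.00668, 1.725 ± 0.00127 and 1.750 ± 0.0101 (SD, n = 3). Melanosome libraries were lowest and did not overlap the other groups, though all 9 ratios lay between 1.724 and 1.760. By summed CPM instead of TPM the means were 1.974 in control, 1.928 in melanosome and 1.971 in glabridin. By the median of log2(TPM + 1) they were 1.34, 1.26 and 1.34 in that order. Melanosome libraries were again lowest and apart by both measures, and also by CPM per kb of transcript. The place of the melanosome group changed without the 3 most abundant members of each subunit. Its mean, 2.009, then lay above the control mean, 1.962, and the glabridin mean was 2.022. No test was run on the ratio, because it is a score over chosen genes.

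**Figure D4:**
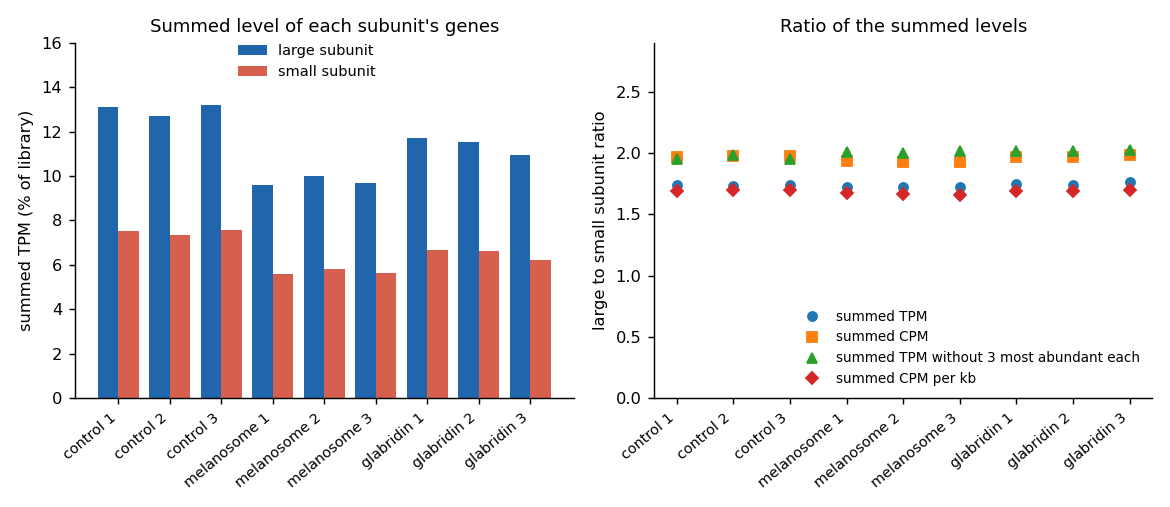
Left, summed TPM of the large (blue) and small (red) subunit genes as percent of the library; right, the ratio of large to small by 4 ways of summing, for each of the 9 libraries. Both sums drop in melanosome libraries while the ratio of summed TPM stays between 1.724 and 1.760.

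Members differed among themselves along the base composition of their transcripts. Across the 77 genes, the log2 fold change of melanosome against control had a Spearman rho of 0.58 with the GC content of the principal GENCODE transcript, so members with more A and T tended to fall further, and over 13855 genes tested the rho was 0.30. The values come from the same libraries and genes are no replicates, so this is a description. RPS6 (GC 42.6%), RPL34 (43.8%) and RPL26 (43.6%) were at the low end and RPLP2 (63.6%), RPL36 (59.7%) and RPS2 (59.0%) at the high end, and RPSA, at 49.5%, lay off the trend. For glabridin against melanosome the rho was 0.21 over the members and -0.02 over all genes. The rho over the members with transcript length was -0.20 and -0.24 in the 2 comparisons and with the mean level 0.02 and 0.04. Members' principal transcripts are short, with a median of 705 bases against 2833, and similar in GC, with a median of 49.7% against 50.05%. Library preparation can act on GC and length, and its part was not tested. Among genes with a listed start, the 46 with a pyrimidine run had a median of -0.61 in melanosome against control and 0.41 in glabridin against melanosome. The 16 without had -0.59 and 0.33. In glabridin against melanosome 45 of the 46 and 13 of the 16 rose, where 23.7% of all genes tested did. No test was made of these differences.

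**Figure D5:**
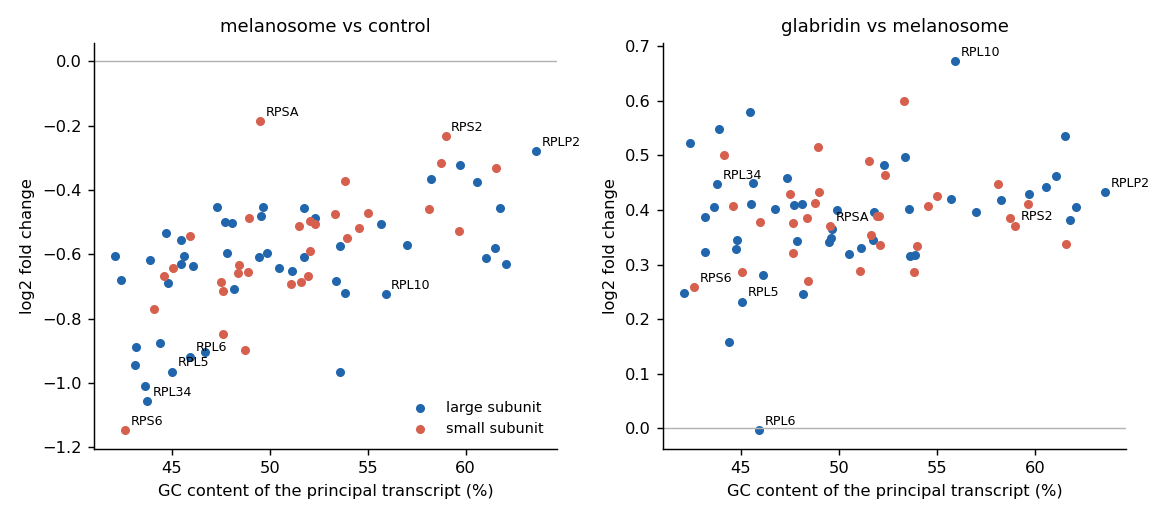
Log2 fold change of each of the 77 genes against the GC percent of its principal transcript, large subunit in blue and small subunit in red, for melanosome against control (left) and glabridin against melanosome (right). On the left RPS6 is lowest at a GC of 42.6% and RPLP2 among the highest at 63.6%; on the right RPL10 and RPL6 mark the ends at 0.67 and 0.00.

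Other genes of the translation machinery were read from lists chosen for their roles. Their counts stand against 29.5% of all genes tested that rose and 33.0% that fell in melanosome against control, and 23.7% and 20.2% in glabridin against melanosome. Elongation factors and further messenger RNAs known to carry a TOP motif had the directions of most ribosomal protein genes. EEF1G was listed at 0 counts in every library. Of the 15 others, 15 fell in melanosome against control (median -0.78) and 13 rose in glabridin against melanosome (median 0.34). EEF1A1, which brings aminoacyl-tRNA to the ribosome, was at 12909, 13056 and 12753 CPM in the control libraries, 6955, 7171 and 7365 CPM in the melanosome libraries and 9800.2, 9718 and 9688 CPM in the glabridin libraries. Its changes were -0.85 ± 0.05 (edgeR adjusted p = 3e-07) and 0.44 ± 0.05 (8.04e-05). TPT1 fell by 1.01 ± 0.05 (6.21e-08) and rose by 0.60 ± 0.05 (6.8e-06). EIF3E, a subunit of an initiation factor, fell by 1.30 ± 0.09 (7.19e-07) and EEF1D, an exchange factor, rose by 0.59 ± 0.07 in glabridin against melanosome (8.6e-05).

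Ribosomal proteins and partners outside the naming rule were mixed. Of 10 tested, 3 rose and 5 fell in melanosome against control, and 6 rose and none fell in glabridin against melanosome. FAU, made as a fusion with a ubiquitin-like protein, followed the members with -0.38 ± 0.08 (edgeR adjusted p = 0.00180) and 0.47 ± 0.08 (0.000849), as did RACK1, a signalling scaffold on the small subunit, with -0.67 ± 0.06 (5.55e-06) and 0.27 ± 0.06 (0.00494), the second of which was lost without glabridin replicate 1 (0.132) and in 5 of the 11 alternatives (adjusted p up to 0.123). The 3 that rose in the first comparison were all paralogs, RPS27L, RPL26L1 and RPL39L, while the paralogs RPL36AL and RPL7L1 fell. RPS27L, a p53 target, was at 5.59, 5.20 and 5.61 CPM in the control libraries, 12.9, 14.5 and 13.5 CPM in the melanosome libraries and 14.0, 19.0 and 13.1 CPM in the glabridin libraries, and rose by 1.31 ± 0.14 in melanosome against control (1.97e-05). RPL22L1 was at 97.8, 93.4 and 94.8 CPM in the control libraries, 93.1, 93.9 and 88.8 CPM in the melanosome libraries and 152, 155 and 156 CPM in the glabridin libraries, with no call in the first comparison (-0.05 ± 0.05, 0.397) and a rise of 0.75 ± 0.05 in the second (2.16e-06).

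Of 18 genes of mTORC1, LARP1, the S6 kinases and MYC, 6 rose and 8 fell in melanosome against control, and 5 rose and 2 fell in glabridin against melanosome. In the first comparison these are 33.3% and 44.4% of the list, against 29.5% and 33.0% of all genes, and in the second 27.8% and 11.1%, against 23.7% and 20.2%. With 18 genes, the counts say little about the list. EIF4EBP1, which holds back cap-dependent translation, was at 36.0, 36.1 and 36.3 CPM in the control libraries, 128, 143 and 144 CPM in the melanosome libraries and 226, 222 and 199 CPM in the glabridin libraries. It rose in both comparisons, by 1.94 ± 0.07 (edgeR adjusted p = 8.57e-09) and 0.64 ± 0.07 (3.66e-05). RPTOR, the scaffold of mTORC1, fell by 0.64 ± 0.07 in the second (6.69e-05). RICTOR, of the sister complex mTORC2, fell by 1.11 ± 0.32 in the first (0.0107), though not by limma on log2(TPM + 0.1) (0.0501). In the second it was at 0.06 ± 0.32 (0.896), with 16.4, 9.98 and 32.04 CPM in the glabridin libraries, and it turned to -0.50 without glabridin replicate 3 (0.0272).

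Among genes that build ribosomes, calls went in both directions. Of 48 assembly factors, 8 rose and 17 fell in melanosome against control (median -0.06), and 15 rose and 7 fell in glabridin against melanosome (median 0.11). The 35.4% that fell in the first comparison are near the 33.0% of all genes, and the 16.7% that rose lie under 29.5%, while the second comparison has 31.2% against 23.7% that rose and 14.6% against 20.2% that fell. Among them MPHOSPH10 and NOP58, which act on the small subunit precursor and on the methylation of ribosomal RNA, fell by 1.00 ± 0.22 (edgeR adjusted p = 0.00254) and 0.93 ± 0.28 (0.0152), the latter not without melanosome replicate 3 (0.0565) and not in 3 of the 11 alternatives (0.0533 to 0.0712). In glabridin against melanosome UTP20 fell by 0.62 ± 0.11 (0.00133) and the kinase RIOK2 rose by 0.61 ± 0.13 (0.00313), the rise not called by either limma fit (0.0609 and 0.0630). Of 10 chaperones of ribosomal proteins, 3 rose and 3 fell in the first comparison and 2 rose and 3 fell in the second. PDCD2L rose in both, by 0.76 ± 0.15 (0.00126) and 0.58 ± 0.14 (0.00651), the second not without glabridin replicate 1 (0.0567). LTV1 fell by 0.62 ± 0.18 in the first (0.0108), though not in 3 of the 11 alternatives (0.0565 to 0.0734), and GRWD1 by 0.47 ± 0.12 in the second (0.0100). Of 15 genes of RNA polymerase I, which transcribes ribosomal RNA, 1 rose and 7 fell in the first comparison and 5 rose and 3 fell in the second. POLR1F fell by 0.84 ± 0.17 in the first (0.00143) and POLR1A by 0.84 ± 0.09 in the second (4.29e-05). TAF1D fell by 0.82 ± 0.19 (0.00394) and then rose by 0.86 ± 0.19 (0.00493), with glabridin libraries at 70.6, 57.3 and 111 CPM, and the rise was 0.54 without glabridin replicate 3 (0.000668).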

How the data were processed

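Poly(A) RNA from 9 HaCaT libraries was sequenced, and the deposited table gives raw gene counts beside the authors' TPM, per the file headers. A second deposited TPM table held the same values (largest difference 0). The genome build was hg38 (submitters' processing notes). Libraries were strand-specific, per the labels' protocols. The aligner, counter, its use of strand and the annotation are not stated in the sources used here. Symbols came from the reference name table for 20148 of 20263 identifiers, positions and transcripts from GENCODE release 29 (GRCh38), and promoters from RefSeq (GRCh38.p14). One transcript per gene was taken by its APPRIS and CCDS tags, the shortest where several tied.

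The count test was edgeR 4.0.16, run in R 4.3.3 (TMM factors, filterByExpr by group, quasi-likelihood test). All 9 libraries stood in a single fit without a replicate block, and p-values were adjusted by Benjamini-Hochberg over 13912 genes in each of 3 comparisons. The fit was tested on data simulated with few changed genes and the same spread in every group. That test cannot speak to the unequal spread of these groups. Standard errors were derived from the F statistic. Replicates differed by more than sampling noise, with a chi-square per gene of 3.19 to 5.42 within control, 4.44 to 14.4 within melanosome and 31.4 to 104 within glabridin libraries. All libraries were kept in the main fit, those of the widely spread glabridin group included. Comparisons share libraries, and no relation between them is given. Members, lists and named genes were chosen with earlier results of these data known. Named are 14 members with fixed roles, the 5 highest and 5 lowest log2 fold changes in each comparison, the 3 highest mean TPM in each subunit, and the 2 largest called changes of each other list in each of the first 2 comparisons. Some genes that this rule names are not reported here. EEF1A1, EEF1G, RPL37, RPS28, RPL26L1, RPL39L, RPL36AL and RPL7L1 were named after their values were seen.

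Alternatives were RLE, upper-quartile or no factors, factors without ribosomal protein genes, no filter, DESeq2 1.42.0, limma 3.58.1 on log2(TPM + 1) and log2(TPM + 0.1), a fit of only the groups compared, a replicate block, a test against a fold of 1.2, and leaving out each library. Chosen after seeing the data were factors without mitochondrially encoded genes and a subunit ratio of CPM per kb of transcript.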

Additional observations from a re-analysis of the deposited data

How the results depend on the processing

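In melanosome against control, 67 to 76 members were lower under every alternative (76 as reported) and none higher, with 72 to 75 when a single library was left out. In glabridin against melanosome, 32 members were higher against a fold of 1.2 (73 as reported), and leaving out a single library gave 39 to 74. There 1 member, RPL6, was lower with library totals alone and with limma on log2(TPM + 1) or log2(TPM + 0.1). In glabridin against control, 20 members were called, all lower, against a fold of 1.2 (37 as reported). Of the 13912 genes tested, 3568 were lower and 4217 higher in that fit (56.0% in either direction). The share of members called lower was thus close to that of all genes, though no member was called higher. Leaving out a single library gave 31 to 49 lower and 0 to 7 higher, the 7 without glabridin replicate 3, and limma on log2(TPM + 0.1) called 2 higher. The subunit ratio in control, melanosome and glabridin libraries was 1.97, 1.93 and 1.97 by summed CPM, 1.34, 1.26 and 1.34 by the median of log2(TPM + 1), 1.96, 2.01 and 2.02 without the 3 most abundant members of each subunit, and 1.70, 1.66 and 1.69 by CPM per kb. Leaving out a single library gave 1.735 to 1.741, 1.724 to 1.725 and 1.745 to 1.755. With a single library left out, RICTOR ran from -0.50 (without glabridin replicate 3, edgeR adjusted p = 0.0272) to 0.37 in glabridin against melanosome, and TAF1D from -0.28 (likewise, 0.0213) to 0.22 in glabridin against control. The cause of these changes was not tested. For single named genes, 2523 values under alternatives stayed on their side of the threshold, 183 lost the call, 46 gained it and 2 reversed. With the replicate number as a block, 75 members were called lower in melanosome against control, 73 higher in glabridin against melanosome and 36 lower in glabridin against control. For libraries with the same number, the correlations of their deviations from the group means ran from -0.38 to 0.0997. Pairs with different numbers were not computed, so whether libraries of a number belong together was not tested. Depth limits RPL36A, at 1.30 CPM in control.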
